A study of Mus musculus with 32 samples.

Results

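The contacts described here are those of the Sox2 promoter bait in gut organoids, at 10 kb to 1 Mb from the bait on the same chromosome. They were every fragment pair that either deposited contact table lists under Sox2 in that range, joined between the tables by bait and fragment. There were 61 such fragments with 3152 reads in all, out of 1474 Sox2 pairs at any distance, 1237 pairs in that range over 14 baits and 30435 pairs in the tables. The control-named table held 60 of these fragments and the IFNγ-named one held 58.

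The material was small-intestinal epithelium of C57BL/6JRj mice labelled aged, which the series' design text gives as 20 to 22 months, grown as organoids, which are self-renewing cultures of crypt epithelium. Organoids of 2 mice, at passages 2 to 5 with 2 passages for each mouse, were kept for 3 hours with 500 pg/ml of interferon gamma (IFNγ) or in growth medium without it. Each mouse and passage gave organoids of both conditions, no allele or transgene is labelled, and each library was made from 25000 cells. The labels hold 32 sequencing samples, which are 4 lanes of each of 8 libraries. Capture-C joins DNA ends that lie close together in fixed nuclei after cutting with DpnII at GATC, and enriches the joined pieces that contain a chosen bait fragment, so a read count measures how often a fragment was recovered joined to the bait. Each table holds 4 numbered count columns, read here as its 4 libraries.

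The labels and the file names disagree on condition. The table whose name says control is attached to samples labelled IFNγ, and the table whose name says IFNγ is attached to control samples. The tables are therefore called control-named and IFNγ-named here, and neither is assigned to a treatment. Differences are given as IFNγ-named minus control-named, and every such sign turns if the tables are read by the labels. The columns name no mouse or passage, so libraries 1 to 4 of a table are not paired with those of the other. The libraries of a table came from only 2 mice, so p-values measure the spread between libraries.

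Sox2 encodes a DNA-binding factor of the SOX family that, with Oct4 and Nanog, keeps pluripotent cells in their undifferentiated state, and that also acts in neural and foregut progenitors. In mouse embryonic stem cells its promoter is known for a long-range contact with a distal enhancer cluster downstream of the gene, the Sox2 control region, which drives most of its transcription there. That cluster lies in the window 100 to 120 kb downstream of the promoter. Differentiated small-intestinal epithelium is not known as a site of strong Sox2 expression. RNA was not analysed here, so whether these organoids expressed Sox2 was not measured.

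The Sox2 bait is the DpnII fragment at chr3:34648729-34650279 (mm10), 1551 bp long. GENCODE places Sox2 (ENSMUSG00000074637.7) at chr3:34650405-34652461 on the plus strand, so the bait ended 126 bp before that start. RefSeq's start lies further upstream, at 34649995, and the bait ran 285 bp past it. The whole bait also lies inside Sox2ot, a long noncoding transcript on the same strand that spans chr3:34104270-34682619. Downstream therefore means larger coordinates here, in the direction of Sox2 transcription.

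The 250 bases before the RefSeq start are shown because they are the promoter that the bait carries (chr3:34649745-34649994, GRCm38, plus strand, RefSeq). Capitals mark a CCAAT box on the minus strand (searched as CCAAT or ATTGG) and GC boxes (searched as GGGCGG or CCGCCC).
Sox2 promoter: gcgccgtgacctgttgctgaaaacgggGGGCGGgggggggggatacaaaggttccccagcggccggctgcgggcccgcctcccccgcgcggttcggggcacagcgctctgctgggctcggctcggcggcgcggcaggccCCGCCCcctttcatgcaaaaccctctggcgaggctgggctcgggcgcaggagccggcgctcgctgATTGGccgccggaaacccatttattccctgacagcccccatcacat
The CCAAT match began 46 bases before the start and the 2 GC boxes 223 and 111 bases before it. The same letters occur in 33.9% and 32.7% of 32851 promoter windows, so they do not mark Sox2 out. The next sequences are the 2 shorter of the 4 fragments that were called as contacts in both tables, with the GATC cut site in capitals. They lie at chr3:34914182-34914408 and chr3:35486417-35486697 (mm10, plus strand).
Sox2 contact 264.8 kb downstream: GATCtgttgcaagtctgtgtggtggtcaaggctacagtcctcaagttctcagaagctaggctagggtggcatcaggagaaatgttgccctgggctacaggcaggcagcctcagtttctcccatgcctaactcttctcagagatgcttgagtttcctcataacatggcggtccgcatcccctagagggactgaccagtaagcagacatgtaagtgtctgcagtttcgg
Sox2 contact 837.1 kb downstream: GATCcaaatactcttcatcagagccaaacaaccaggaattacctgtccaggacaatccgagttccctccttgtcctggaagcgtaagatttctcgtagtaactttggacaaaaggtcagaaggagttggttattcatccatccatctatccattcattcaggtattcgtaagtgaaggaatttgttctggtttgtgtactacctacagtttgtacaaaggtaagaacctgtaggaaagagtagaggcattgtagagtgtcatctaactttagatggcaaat
The first is 227 bp and the second 281 bp long, and GENCODE annotates no gene at either.

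All 14 baits together had 24549 to 37290 reads per control-named library and 23037 to 30932 per IFNγ-named library. Sox2 took 5.44% ± 0.473 (SD, n = 4) of a library in the control-named table and 5.45% ± 1.16 (n = 4) in the IFNγ-named table. Of those Sox2 reads, 25.2% ± 6.87 and 23.8% ± 6.70 fell at 10 kb to 1 Mb. The rest lay under 10 kb (7.57% ± 2.79 and 6.63% ± 2.45), beyond 1 Mb on the same chromosome (39.4% ± 3.99 and 37.3% ± 5.54) or on other chromosomes (27.9% ± 3.43 and 32.2% ± 2.97). Most Sox2 reads were therefore outside the range described here. The median over the 13 other baits was 25.3% of reads inside it.

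In-range reads per library were 562, 576, 459 and 186 in control-named libraries 1 to 4, and 505, 371, 252 and 241 in IFNγ-named libraries 1 to 4. These ranges overlapped, and control-named library 4 was the lowest of all 8. In edgeR's quasi-likelihood fit over the in-range reads of all 14 baits, Sox2 differed by -0.02 on the log2 scale (SE 0.293, adjusted p = 0.959), or 0.02 with the sign turned. None of the 14 baits passed at an adjusted p under 0.05 (0% called). At an unadjusted p under 0.05 the edgeR fit gave 1 bait and DESeq2 gave 2, none of them Sox2. Among the 8 other baits of pluripotency genes (Nanog, Klf4, Klf2, Esrrb, Sall4, Tfcp2l1, Dppa5a and Phc1), 0 passed by edgeR with 0 at an unadjusted p under 0.05, and DESeq2 also gave 0 and 0. Their median was 0.05 on the log2 scale, and that of all 14 baits was 0.05.

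The Sox2 reads sat on few fragments. The mm10 sequence holds 3720 DpnII fragments of at least 100 bp at 10 kb to 1 Mb from the bait, and 1.64% of them were listed. The share ranged from 1.42% to 3.33% over the 13 other baits, of which 11 were above Sox2. Listed fragments had a median of 45 reads over 8 libraries, and 49 of the 61 had reads in all 8. Of the 488 counts of a fragment in a library, 137 were exactly 1 and 50 were 0. Presence in a library thus often meant 1 read, and why counts of 1 were so frequent was not tested. In all, 57 were listed in both tables, which is 95% of the control-named and 98.3% of the IFNγ-named list. Beyond 1 Mb the shared part was 61.7% and 75% of the lists, and on other chromosomes 10.4% and 13.3%. The near fragments thus recurred from table to table, in part through counts of 1, whereas most pairs on other chromosomes did not. There, 92.3% of the pairs had 1 read in all, against 6.56% of the pairs at 10 kb to 1 Mb.

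**Figure D1:**
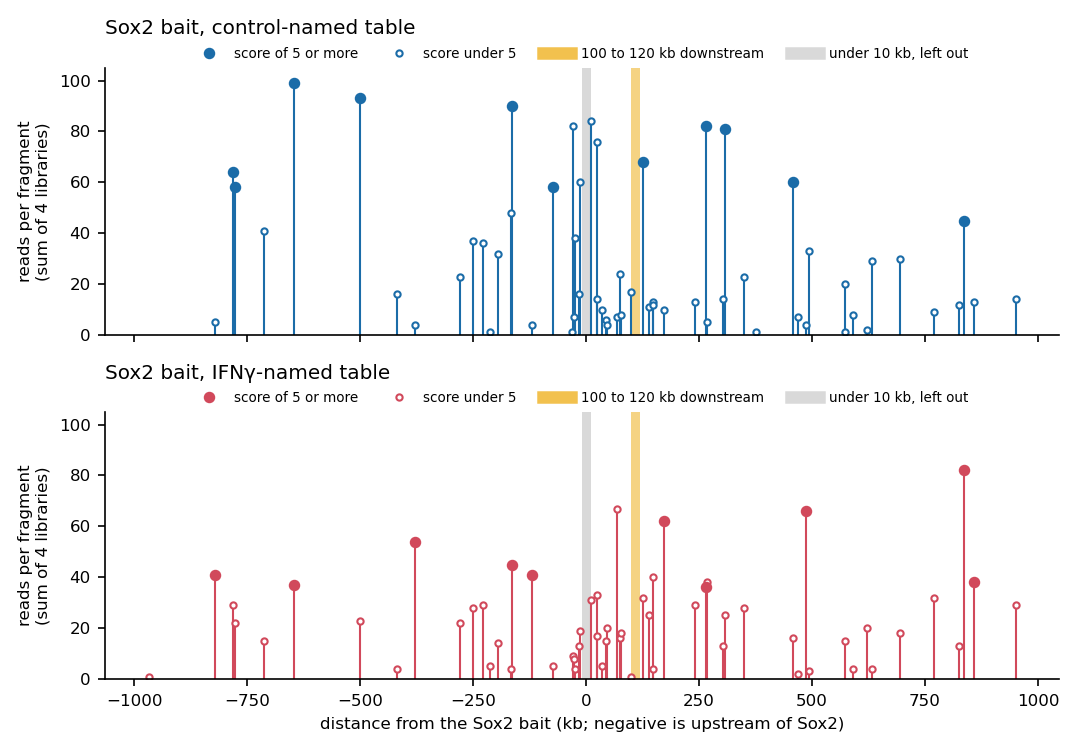
Reads of each Sox2 fragment (sum of 4 libraries, vertical axis) against its distance from the bait in kb (negative is upstream), in the control-named table (top) and the IFNγ-named table (bottom). Filled points have a score of 5 or more, and the yellow band, 100 to 120 kb downstream, holds no fragment in either table.

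The window known for the enhancer contact of stem cells was empty. None of the 30 DpnII fragments at 100 to 120 kb downstream was listed in either table, so each counts as 0 reads in the 8 libraries. Whether the tables list every fragment with reads is not stated in the sources used here. If they do, a count of 0 of the 3152 in-range reads allows a share of up to 0.0952%, for counting error only. The nearest listed fragments lay on either side of the window, at 99.4 kb and at 126.8 kb downstream. The first had 18 reads, of which 17 were in control-named library 3. The second, in an intron of the noncoding gene Gm38509, had 48, 7, 6 and 7 reads in control-named libraries 1 to 4 and 10, 4, 6 and 12 in the IFNγ-named ones, so every library had reads there. It was called as a contact in the control-named table, with a score of 5.40, and not in the other, with 4.71.

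Over the whole range, an empty window of this width was common for this bait. Of 98 windows of 20 kb between 20 kb and 1 Mb on both sides, 57 (58.2%) held no listed fragment. That share is not matched for distance, since listed fragments were sparser far from the bait. Nearer by, the downstream windows at 60 to 80, 80 to 100, 120 to 140 and 140 to 160 kb held 140, 18, 136 and 69 reads. The same windows upstream held 63, 0, 0 and 0 reads. The 13 other baits all had reads at 100 to 120 kb downstream, with 1 to 286 reads on 1 to 5 fragments. The matching upstream window of Sox2 held 1 of 41 fragments, at 119.8 kb, with 1 read in each of 7 libraries and 38 in IFNγ-named library 2. The downstream share was below the upstream share by 1.54 percentage points on average. With 0 reads counted downstream in every library, that sign was fixed by this upstream fragment alone, so no test of the window's sides is given. Widening the window by 5 kb at each end gave a difference of -1.06 points with an exact permutation p = 0.516. That value rests on this upstream fragment and the one at 99.4 kb downstream, each read mostly in 1 library, so it decides nothing.

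Single libraries held much of the signal. Of the 55 fragments with 10 or more reads, 30 had over 50% of them in 1 of the 8 libraries, and these 30 carried 1707 of the 3152 reads (54.2%). Equal reads in 8 libraries would put an eighth in each, and the median top library held 52.9%. That median was 40.5% to 57.3% over the 13 other baits, with 1 bait above Sox2, and the share of fragments over 50% was higher for Sox2 (54.5%) than for any of them (28.1% to 52.9%). Leading libraries came from both tables. Of the 30 fragments, 16 had their most reads in a control-named library and 14 in an IFNγ-named one.

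**Figure D2:**
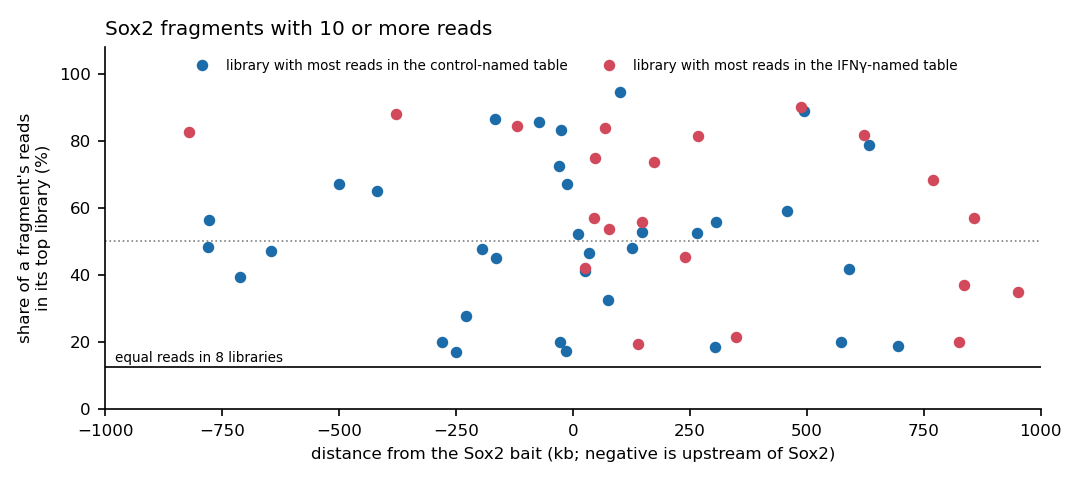
Share of a fragment's reads that came from its top library (%) against distance from the Sox2 bait in kb, for the 55 fragments with 10 or more reads, coloured by the table of that library. Points above the dotted line at 50% are the 30 fragments read mostly in 1 library, and they lie on both sides of the bait.

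At 10 fragments, 1 library had 10 or more reads and no other had more than 1. The most uneven of the called ones lay 487.5 kb downstream, outside any annotated gene, with 63 reads in IFNγ-named library 1 and 1 read in each of the other 7 libraries. A fragment 378.2 kb upstream, in a Sox2ot intron, had 51 reads in that same library and 1 in each of the rest. At 73.2 kb upstream, also in a Sox2ot intron, control-named library 2 had 54 reads and no other library more than 2. Each of these 3 passed the score of 5 in the table of its leading library only. The sources used here mention no molecular identifiers, so these are counts of reads, and the cause of the unevenness was not tested.

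At the other end, 11 fragments had no more than 30% of their reads in any library. The fragment 249.3 kb upstream, in a Sox2ot intron, was the most even, with 10, 11, 8 and 8 reads in the control-named and 6, 6, 6 and 10 in the IFNγ-named libraries. At 349.6 kb downstream, in no annotated gene, the counts were 9, 6, 5 and 3 against 5, 5, 11 and 7. A fragment 694.4 kb downstream had 9, 8, 4 and 9 reads against 3, 3, 5 and 7. The tables overlapped at each of these. These 11 lay on both sides of the bait, 6 of them downstream, and their median distance was 279.8 kb.

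The authors' score per pair, which ranks a pair within its table, reached 5 at 11 of 60 fragments in the control-named table (18.3%) and at 10 of 58 in the IFNγ-named table (17.2%). Over all 14 baits at these distances the shares were 11.8% and 10.4%. The pairs called in either table numbered 17, of which 9 lay upstream and 8 downstream. Over both tables, 12 of the 17 had over 50% of their reads in 1 library. Within the calling table, 1 library held over 50% of that table's reads at 10 of 11 control-named and 7 of 10 IFNγ-named calls. None of the 17 was among the 11 evenly read fragments. The evenly read fragment at 249.3 kb upstream stood just under the threshold, with scores of 4.99 and 4.79, and the called fragment just inside it in the control-named table was the one at 73.2 kb upstream, with 5.11. The nearest called fragments lay 73.2 kb from the bait for the control-named table and 119.8 kb for the other, so none lay close to it.

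Both tables called 4 fragments, which is 36.4% of the control-named and 40.0% of the IFNγ-named calls. The upstream ones come first. The fragment at 646.9 kb (chr3:34002467-34002833), in no annotated gene, had 64, 14, 13 and 8 reads in the control-named and 10, 4, 12 and 11 in the IFNγ-named libraries, with scores of 7.36 and 5.21. The fragment at 165.0 kb (chr3:34484227-34484741), in a Sox2ot intron, had 61, 10, 11 and 8 reads against 21, 8, 8 and 8, with scores of 5.94 and 5.15. In both, control-named library 1 stood far above the rest, whose ranges overlapped.

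The downstream contacts are those whose sequences are printed above. At 264.8 kb the counts were 10, 62, 8 and 2 in the control-named and 3, 13, 10 and 10 in the IFNγ-named libraries, with scores of 6.32 and 5.09. At 837.1 kb they were 9, 15, 12 and 9 against 13, 47, 10 and 12, with scores of 5.42 and 8.34, the highest of any Sox2 fragment in the range. It had the highest median over libraries, 12 reads, and its lowest library had 9. The top libraries were thus control-named library 2 at the first and IFNγ-named library 2 at the second, and the others overlapped between tables. By edgeR these 4 differed by -1.13, -0.66, -0.90 and 0.98 on the log2 scale, in the order given (SE 0.705, 0.760, 0.846 and 0.609), with adjusted p of 0.321, 0.561, 0.473 and 0.321. Without its top library each moved by over 1.5 times, to -0.20 and 0.39 without control-named library 1, 0.50 without control-named library 2 and 0.22 without IFNγ-named library 2.

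The remaining 13 calls were made in 1 table, and 11 of them had over 50% of their reads in 1 library. Those of the control-named table included 499.7 kb upstream, in a Sox2ot intron, with 6, 78, 4 and 5 reads against 5, 4, 7 and 7. At 306.8 kb downstream the reads were 12, 59, 6 and 4 against 6, 6, 8 and 5, and at 458.4 kb downstream 10, 45, 3 and 2 against 5, 2, 4 and 5. Control-named library 2 led at all 3. A neighbouring pair of fragments 781.6 and 777.9 kb upstream, in an intron of the noncoding gene 4930431L21Rik, was led by different libraries. The farther had 45 of 93 reads in control-named library 2 and the nearer 45 of 80 in control-named library 3. Among IFNγ-named calls, 172.2 kb downstream had 3, 2, 3 and 2 reads against 1, 53, 3 and 5, and 857.3 kb downstream 3, 5, 2 and 3 against 2, 29, 4 and 3, with IFNγ-named library 2 leading at both.

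**Figure D3:**
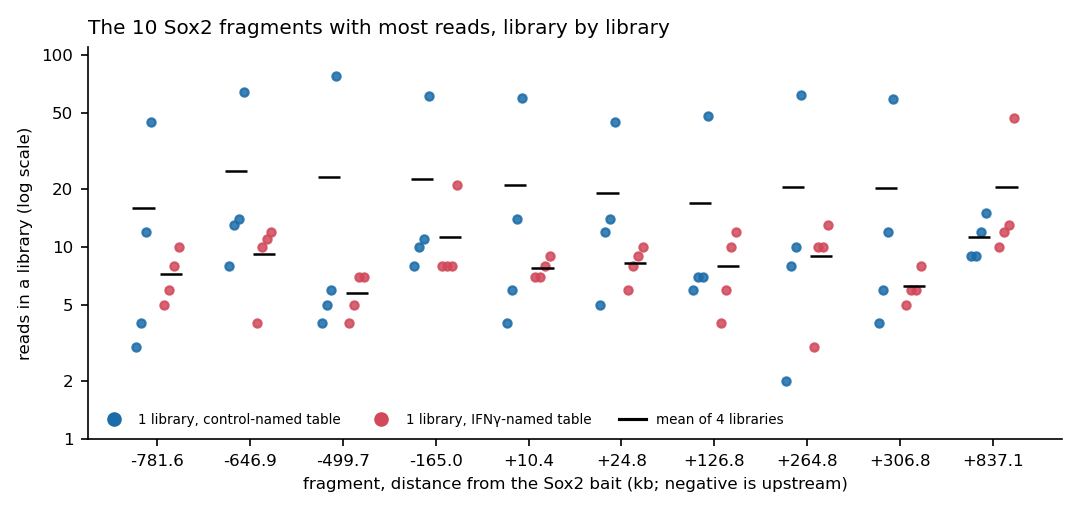
Reads in each of the 8 libraries (log scale) for the 10 Sox2 fragments with most reads, ordered by distance from the bait in kb. At 9 of the 10 a control-named library is the highest point, at 837.1 kb downstream an IFNγ-named one, and the remaining libraries of both tables overlap.

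Among the 10 fragments with most reads, 2 were near the bait and not called in either table. The one 10.4 kb downstream, in an intron of Sox2ot, had 60, 14, 6 and 4 reads against 9, 7, 8 and 7. The one 24.8 kb downstream had 14, 12, 45 and 5 against 6, 10, 9 and 8. Ranking fragments by their median over the 8 libraries instead kept 8 of these 10. No fragment had libraries of the 2 tables that did not overlap: the count was 0 of 55, against 12 of 1052 pairs (1.14%) over all baits.

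Fragment by fragment, no difference between the tables passed. Of the 55 Sox2 pairs with 10 or more reads, edgeR called 0 at an adjusted p under 0.05, with 0% called of the 3673 pairs of all baits at any distance. Only 1052 pairs of all baits with 10 or more reads lay at 10 kb to 1 Mb. The shares of all pairs are therefore not matched to the Sox2 pairs by distance. At an unadjusted p under 0.05 it gave 13 Sox2 pairs (23.6%), against 16.7% of all pairs, and 12 of those 13 had over 50% of their reads in 1 library. DESeq2 called 0 with 3 at an unadjusted p under 0.05 (5.45%, against 7.65% of all pairs) and gave no adjusted p for 13. Summed into 10 kb windows, 0 of 45 Sox2 windows passed by edgeR (0% of 636 over all baits), with 11 at an unadjusted p under 0.05 (24.4%, against 16.8% of all windows). DESeq2 called 0 windows with 3 at an unadjusted p under 0.05 (6.67%, against 9.91%). With no minimum of reads edgeR called 3 of the 61 Sox2 pairs, at 378.2 kb upstream and at 68.0 and 487.5 kb downstream. IFNγ-named library 1 held 87.9%, 83.8% and 90.0% of their reads. Over all baits and any distance, 168 of 30435 pairs were called. Those include many pairs of 1 read, so the Sox2 count is not comparable with that share.

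By side, the reads weighed differently in the 2 tables. The downstream share was 45.6%, 51.9%, 48.1% and 50.5% in control-named libraries 1 to 4, and 63.2%, 70.1%, 63.5% and 65.6% in the IFNγ-named ones. Every IFNγ-named library was above every control-named one. The means were 49.0% ± 2.80 and 65.6% ± 3.19 (SD, n = 4 each), a difference of 16.5 percentage points (-16.5 with the sign turned), with an exact permutation p = 0.0286, the smallest that 4 against 4 can give, and 0.0571 adjusted over the 2 shares compared. Adjusted over the 14 baits the exact p was 0.200. It was the largest such difference of the 14, and Phc1 was the other bait of 2 (14.3%) whose libraries did not overlap, at 50.5% ± 5.74 and 58.4% ± 4.82.

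The size of this difference depended on how fragments were weighed. With each fragment counted once in every library that read it, the downstream share was 61.1% ± 1.42 and 59.9% ± 2.31 (n = 4 each), a difference of -1.19 points (exact permutation p = 0.514). Each library read 53 to 56 of the 61 fragments, so this measure had little room to differ. With each fragment counted once, in the library with most of its reads, the difference was 37.2 points (exact permutation p = 0.0286). Those shares rest on 9, 12, 8 and 4 fragments in control-named libraries 1 to 4 and 10, 6, 4 and 2 in the IFNγ-named ones. They follow the same leading libraries that weigh on the share of reads, so they are not separate evidence. With the 30 fragments of over 50% in 1 library left out, the shares were 47.6% ± 5.81 and 60.1% ± 4.02 and the difference 12.5 points (exact permutation p = 0.0571), and the libraries then overlapped. Of those 30 fragments, 8 upstream ones were led by a control-named and 3 by an IFNγ-named library, and 8 and 11 downstream ones. The leading libraries held 389 and 127 reads of the upstream and 310 and 361 reads of the downstream fragments.

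**Figure D4:**
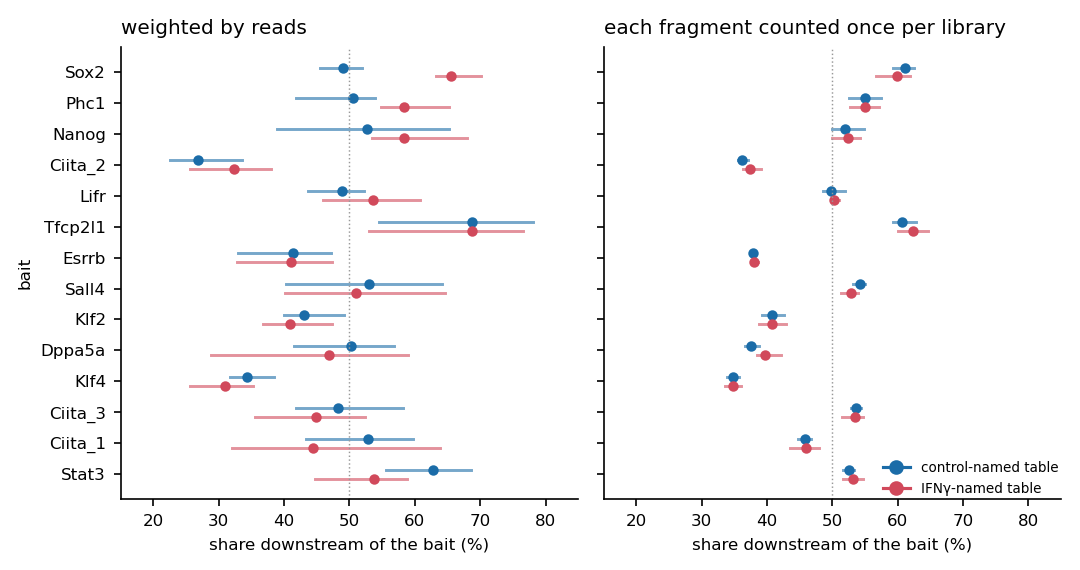
Downstream share (%) of the fragments from 10 kb to 1 Mb for each of the 14 baits, weighted by reads (left) or with each fragment counted once per library (right), as the mean (point) and range (line) of the 4 libraries of a table. The Sox2 ranges are apart on the left and overlap on the right, where each library read 53 to 56 of the 61 Sox2 fragments.

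Across all 8 libraries the downstream share was 57.3% ± 9.27, with 37 fragments and 1767 reads downstream and 24 fragments and 1385 reads upstream. Available fragments were split nearly evenly, with 51.2% of them downstream. The downstream minus upstream difference was 14.6 points and positive in 6 of 8 libraries, with an exact sign-flip permutation p = 0.0859 (0.0859 adjusted over 3 tests of side, that of the window included). Within the tables it averaged -1.93 points for control-named libraries and 31.2 for IFNγ-named ones, with exact p of 0.750 and 0.125, the latter the smallest that 4 libraries can give. Against the mean of the 13 other baits in the same library, the Sox2 downstream share was 8.88 points higher (6 of 8 libraries, exact permutation p = 0.0547, 0.0820 adjusted over the same 3 tests). The window's test counted in that adjustment although its sign was fixed. That lowered the adjusted value, so 0.0820 is too low and is not relied on.

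Sox2 reads lay far from the bait. The share beyond 100 kb was 72.6% ± 8.94 for control-named libraries and 79.2% ± 5.94 for IFNγ-named ones (n = 4 each), which did not differ beyond the spread between libraries (exact permutation p = 0.229). Over 8 libraries its mean of 75.9% was above the means of all 13 other baits, which ran from 34.3% to 66.7%. Per 100 available fragments there were 797 reads at 10 to 30 kb downstream, 154 at 30 to 100 kb, 132 at 100 to 300 kb and 59.5 beyond 300 kb. On the upstream side the values were 640, 48.9, 124 and 47.6, with a low point at 30 to 100 kb, where 2 of 131 fragments were listed. Most reads at 30 to 100 kb upstream came from the fragment at 73.2 kb and control-named library 2.

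**Figure D5:**
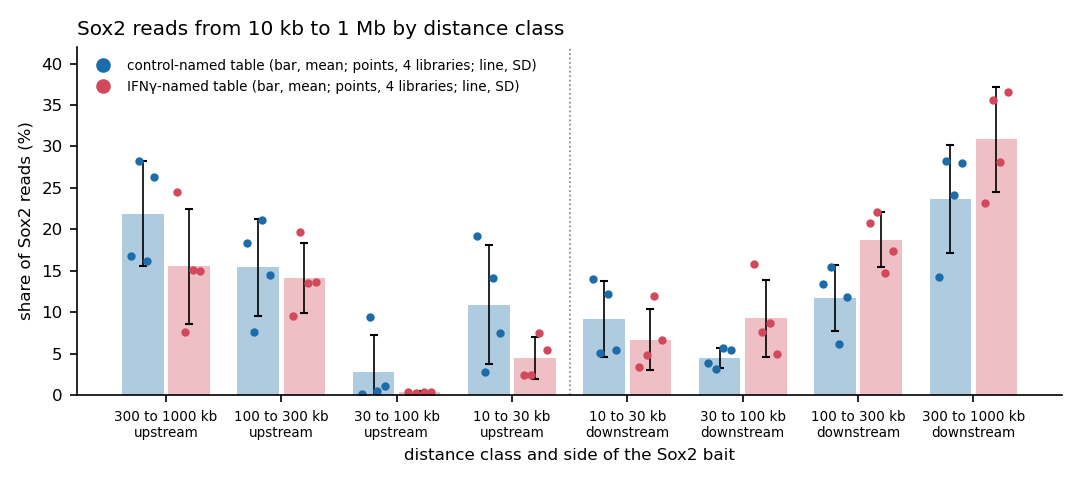
Share of the in-range Sox2 reads (%) in 4 distance classes on each side of the bait, with bars for the mean of 4 libraries, lines for the SD and points for libraries. The class from 300 to 1000 kb downstream is the highest in both tables (23.7% and 30.9%), and libraries of the 2 tables overlap in most classes.

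In their spread over these 8 classes, the baits most like Sox2 were Tfcp2l1, Sall4 and Esrrb. For these, 14.4%, 19.0% and 22.2% of the reads would have to change class to match Sox2 (means of 8 libraries), and for the least like bait, Ciita_1, a promoter of the regulator of MHC class II genes, 43.6%. Baits of pluripotency genes, 8 of the 13 compared, lay at both ends of this order, with Phc1 second least like at 42.6% and Klf4, Klf2 and Nanog at 35.3%, 33.3% and 33.3%. Tfcp2l1 was also the bait with the highest downstream share, 68.8%, where its tables overlapped and differed by 0.03 points. The longest stretches without a Sox2 fragment were upstream, 148 kb between 820.1 and 967.7 kb (291 available fragments) and 147 kb between 499.7 and 646.9 kb (247 available fragments).

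The second of those stretches holds both Fxr1, which encodes an RNA-binding protein, and Dnajc19, which encodes a protein of the mitochondrial inner membrane. Neither gene had a listed fragment, out of 86 and 45 available ones. Apart from Sox2 itself, the protein-coding genes in range were those 2, Ttc14 and Ccdc39, and all lay upstream. Ttc14 also had no listed fragment, out of 28 available ones. Ccdc39, needed for assembly of motile cilia, held the fragment 820.1 kb upstream, with 1, 2, 1 and 1 reads in the control-named and 38, 1, 1 and 1 in the IFNγ-named libraries, so 1 library held 82.6% of them.

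Most of the rest was noncoding. Sox2ot, which surrounds Sox2, held 21 fragments and 1228 reads, and it holds 27.6% of the available fragments. Its share was 43.9% ± 9.31 of the in-range reads of control-named libraries and 30.6% ± 4.35 of IFNγ-named ones (n = 4 each). The libraries overlapped, with 60 of 186 reads in control-named library 4 and 93 of 252 in IFNγ-named library 3. Sox2ot covers 10 to 30 kb on both sides, where reads per available fragment were highest. How far distance accounts for its share was not tested. The downstream side had 31 of the 34 fragments in no annotated gene. Gm38509, 1700017M07Rik and Gm6639, 3 long noncoding genes downstream, held 1 listed fragment each, with 100, 22 and 43 reads. Only 4 of the 61 fragments lay within 1 kb of an annotated transcription start and 1 overlapped an exon, of Sox2ot at 12.6 kb upstream.

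The listed fragments resembled the available ones in length, with medians of 376 and 369 bp, and in G and C content, with medians of 43.9% and 42.7%. They held less repeat sequence, with a median of 18.0% against 23.8% masked bases, and 9.84% of them were over 50% masked against 25.2% of those available. Reads of repeats align less uniquely, and its part in which fragments were listed was not tested. Of the 61 fragments, 12 were also listed with another bait, with at most 1 read there.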

How the data were processed

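The authors deposited 2 tables of bait and fragment pairs. Per the submitters' processing notes, reads were processed with Bowtie2 on mm10, while how duplicates were treated, tool versions and caller settings are not stated in those notes. The columns hold 4 numbered read counts, a background signal and a score per pair, as deposited by the authors. Their headers name no library or lane, so reading the 4 counts as the 4 libraries of a table is an inference. The counts were used for all tests. The score was used as deposited, within its table, at a threshold of 5. The background signal entered no test.

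Sox2 rows at 10 kb to 1 Mb were joined, and all listed fragments matched a DpnII digest of GRCm38 and were annotated with GENCODE. edgeR 4.0.16 (quasi-likelihood, pairs with 10 or more reads, Benjamini-Hochberg adjustment over all baits) was the main test and DESeq2 1.42.0 an alternative, after a check on simulated counts. The simulated counts held no single leading libraries, so that check does not give the power for these data. Shares were compared with exact permutation tests over libraries, two-sided. Named fragments were the 10 with most reads, every pair with a score of 5 or more, and evenly read or neighbouring ones chosen after their values were seen. The members, lists and tests were chosen with earlier results of these data known. Intervals and limits cover counting error only.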

Additional observations from a re-analysis of the deposited data

Results flagged for a closer look

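In 5 of the 18 sets of 4 libraries tested, 1 library stood apart from the other 3 by Dixon's criterion at 95%. Chance flags about 1 set in 20 where values are not selected. All 5 concern the 4 Sox2 fragments called in both tables, and each is a library with more reads than the rest. Those fragments were selected by scores over all libraries of a table, which 1 high library can raise. The count of flags is therefore not comparable with that rate. At 646.9 kb upstream, control-named library 1 had 64 reads, against 8 to 14 in the others. At 165.0 kb upstream, control-named library 1 had 61 reads, against 8 to 11, and IFNγ-named library 1 had 21, against 8 in each of the others. At 264.8 kb downstream, control-named library 2 had 62 reads, against 2 to 10. At 837.1 kb downstream, IFNγ-named library 2 had 47 reads, against 10 to 13.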

How the results depend on the processing

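No paired analysis was possible because the library columns name no mouse or passage, so no replicate block could be fitted. Of 144 alternatives over 14 results, 7 were added after seeing the data (fragments with over 50% of reads in 1 library left out), and 114 kept direction and side of the threshold. The 114 include runs of the 100 to 120 kb window, whose sign was fixed, so those runs do not measure stability. The difference in Sox2 reads between tables, -0.02 on the log2 scale, changed sign with DESeq2 (0.0040), from 20 kb to 500 kb (0.037) and without fragments of other baits (0.0022), and ran from -0.36 to 0.11 with a library left out. Leaving out libraries gave 0 called pairs and windows each time. It gave 15.04 to 17.5 points for the downstream share between tables and 3.27 to 9.28 for the share beyond 100 kb. Downstream minus upstream ran from 10.96 to 18.0 and the difference from the other baits from 7.24 to 10.7. The 100 to 120 kb window gave -1.74 to -0.30, a sign fixed by 1 upstream fragment. Without control-named library 1 the downstream minus upstream difference was 18.0 points (exact permutation p = 0.0469, unadjusted). Against the other baits it was 10.7 points without control-named library 1 (exact p = 0.0312, unadjusted) and 10.4 without library 3 (exact p = 0.0469, unadjusted).

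With each fragment counted once per library, the downstream difference between tables was -1.19 points, downstream minus upstream 21.0 and the difference from other baits 13.3. Each library read nearly the same list, so these show neither stability nor a side bias repeated over libraries. With each fragment counted in its top library, the difference between tables was 37.2 points, from 2 to 12 fragments per library. From 20 kb to 500 kb downstream minus upstream and the difference from other baits were 18.9 and 10.9 points (exact permutation p = 0.0391 each, unadjusted). Without fragments of over 50% in 1 library, the difference between tables was 12.5 points (exact permutation p = 0.0571, against 0.0286 unadjusted with all fragments, which itself became 0.0571 adjusted over 2 shares), and the window difference was 0. The window difference was -2.08 points with each fragment counted in its top library, and -1.06 with a window 5 kb wider at each end. With no minimum of reads 3 pairs were called. At a score of 3 the calls rose to 47 and 45 and at 7 fell to 2 and 1, and without fragments of over 50% in 1 library they were 5 and 3. The pair at 165.0 kb upstream turned from -0.66 to 0.39 without control-named library 1 (range -1.30 to 0.39), and the pair at 264.8 kb downstream from -0.90 to 0.50 without control-named library 2 (range -1.41 to 0.50). Those at 646.9 kb upstream and 837.1 kb downstream ranged from -1.49 to -0.20 and from 0.22 to 1.17, nearest 0 without control-named library 1 and IFNγ-named library 2. The cause was not tested. Reads limit the rest: a library's 186 to 576 in-range reads put the limit of a count of 0 at 0.521% to 1.61% of its reads.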
